A study of Mus musculus with 6 samples.

Results

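Claudins are the membrane proteins that form the strands of tight junctions and set which ions pass between neighbouring epithelial cells. The members described here are the 10 claudin genes with a row in the normalized count table, Cldn1, Cldn2, Cldn3, Cldn4, Cldn7, Cldn8, Cldn10, Cldn12, Cldn16 and Cldn19, taken by gene symbol from 12125 genes. The rule uses gene names and no measured value, though the list was drawn up with earlier results of these data known. The libraries were made from mouse kidney cells of 2 genotypes, Trf1+/+ and Trf1flox/flox, with 3 libraries each. Trf1, whose gene symbol is Terf1, encodes a shelterin protein that protects chromosome ends. All mice of both groups carried Col1a2-CreERT2, a tamoxifen-inducible recombinase expressed from the promoter of a type I collagen gene, and the KFP reporter, a red fluorescent protein. Males and females received tamoxifen from an age of 6 to 8 weeks, 3 times a week over 8 weeks, so the controls were exposed to Cre and tamoxifen as well. Cells were sorted on CD29, an integrin, and on the reporter, and each library was made from 500 cells labelled as fibroblasts. The recombinase acts where the Col1a2 promoter is active, and the sex of the mouse behind each library is not given in the labels. The study describes its groups as separate mice, while the labels tie no library to a mouse, so the p-values below measure the spread between these libraries.

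Each segment of the nephron carries its own set of claudins. In the proximal tubule claudin-2 forms a pore for cations and water, while claudin-10 occurs as isoforms that conduct anions in the proximal tubule and cations in the thick ascending limb. Claudin-16 and claudin-19 act together in the thick ascending limb in the paracellular uptake of magnesium and calcium. In the distal nephron and collecting duct claudin-3, claudin-4, claudin-7 and claudin-8 seal the junction or let chloride through, and claudin-1 is known from the parietal cells of Bowman's capsule. Claudin-12 has been linked to calcium passage. Fibroblasts form no tight junction strands.

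Terf1 was read before the claudins because it checks the genotype labels. It measured 0.891, 253 and 235 normalized counts under the Trf1+/+ label and 110, 7.65 and 12.4 under the Trf1flox/flox label, where 0.891 stands for 1 read. The library labelled Trf1+/+ replicate 1 was therefore the lowest of all 6 and went against its label, and the log2 fold change was -1.04 (SE 2.22, limma adjusted p = 0.996). The same library had a median of 13.4 normalized counts per gene, against 118 to 148 in the other 5, although the total reads were alike at 10263382 to 12248797. Genes averaging 100 or more in the other 5 libraries were missing there in 12.9% of cases, in 9.01% for Trf1flox/flox replicate 2 and in 0.932% to 3.68% for the rest. The cell type label was set beside its markers. Of 9 fibroblast markers 2 had a row, Col1a2 stayed at or under 3 reads in every library, and Dcn reached at most 97.3, with summed levels of 1.66 to 94.6 in Trf1+/+ and 2.58 to 98.4 in Trf1flox/flox. All 8 epithelial markers had a row, with sums of 5490 to 10191 and 6477 to 16209. The sums of the 3 thin limb markers with a row were 418 to 3122 and 1149 to 3887. Other stromal and blood cell types were scarce, with 2 of 6 pericyte and smooth muscle markers (0 to 37.4 and 18.6 to 233), 1 of 7 endothelial markers (Pecam1, 7.13 to 9.11 and 0.859 to 12.02) and 3 of 7 leukocyte markers (0 to 379 and 0 to 260.1). The libraries thus held abundant tubular RNA and hardly any RNA of the fibroblast markers, and they are called by their genotype below. In bulk samples, fewer cells of a type and less RNA per cell cannot be told apart.

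The start regions of 4 members are shown as a description, and their relation to the levels below was not tested. The 250 bases before each RefSeq start (GRCm38.p6) were matched by symbol for 9 of the 10 members, Cldn8 not among them, which gave 14 windows. Cldn10 has starts 67079 bases apart, at chr14:118787621-118787870 and chr14:118854700-118854949 (both plus strand), and the table adds both into 1 value. Cldn3, at chr5:134985964-134986213 (plus strand), and Cldn4, at chr5:134946935-134947184 (minus strand), are neighbours that shared some libraries with low levels and differed in others. Cldn2, at chrX:139800558-139800807 (plus strand), had the largest SD of all members on the log2 scale. Sequences run 5′ to 3′ towards the start, and capitals mark the motifs named in the next paragraph.
Cldn10, upstream start: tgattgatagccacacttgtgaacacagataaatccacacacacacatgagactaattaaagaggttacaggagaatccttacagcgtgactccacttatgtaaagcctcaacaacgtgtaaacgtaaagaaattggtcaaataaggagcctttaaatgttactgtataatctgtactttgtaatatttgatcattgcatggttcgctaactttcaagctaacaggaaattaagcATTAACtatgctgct
Cldn10, downstream start: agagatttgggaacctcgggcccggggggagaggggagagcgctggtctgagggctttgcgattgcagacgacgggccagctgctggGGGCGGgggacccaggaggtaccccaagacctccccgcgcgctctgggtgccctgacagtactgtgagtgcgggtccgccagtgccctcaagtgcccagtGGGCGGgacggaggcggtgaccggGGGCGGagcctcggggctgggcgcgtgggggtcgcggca
Cldn2: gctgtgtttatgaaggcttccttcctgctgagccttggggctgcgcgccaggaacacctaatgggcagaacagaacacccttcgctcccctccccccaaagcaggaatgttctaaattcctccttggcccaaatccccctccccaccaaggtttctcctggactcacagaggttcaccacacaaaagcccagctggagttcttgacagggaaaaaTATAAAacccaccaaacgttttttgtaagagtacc
Cldn3: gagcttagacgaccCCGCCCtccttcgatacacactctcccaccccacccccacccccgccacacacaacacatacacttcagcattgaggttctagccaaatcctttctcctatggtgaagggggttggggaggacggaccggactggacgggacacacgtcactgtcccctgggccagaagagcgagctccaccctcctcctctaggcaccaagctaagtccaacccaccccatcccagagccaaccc
Cldn4: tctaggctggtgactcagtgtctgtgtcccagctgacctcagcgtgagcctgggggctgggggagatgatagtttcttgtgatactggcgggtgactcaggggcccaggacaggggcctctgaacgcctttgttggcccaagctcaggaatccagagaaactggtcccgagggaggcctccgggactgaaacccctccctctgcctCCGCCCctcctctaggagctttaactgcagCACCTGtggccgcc

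The Cldn10 windows differed in composition. The upstream one held 36% G or C and 4 CpG, and the downstream one 72.4% and 22 CpG, against medians of 52.4% and 6 CpG over 32851 windows of the same length. Motifs were searched as letters on both strands. The TATA box letters TATAAA lay 35 bases before the Cldn2 start and in no other member window, against 12.4% of all windows. The letters GTTAAT, part of the site of the nephron factor HNF1, were in the upstream Cldn10 window, 15 bases before the start and on the reverse strand (ATTAAC), and in that of Cldn1. They occurred in 6.43% of all windows. Bases checked after the upstream Cldn10 start matched no GENCODE transcript of the gene, so the distance of 15 bases rests on the RefSeq start. The SNAIL E-box CACCTG was in windows of Cldn4 and Cldn7 and in 17.2% of all windows. The GC box GGGCGG, bound by SP1, was in 9 of the 14 member windows and in 32.7% of all windows, and 3 copies lay in the downstream Cldn10 window. Windows of Cldn12 and of Cldn19 overlap and count the same boxes again. By gene the box was in 7 of the 9 members, and no share by gene over all genes was computed to set beside it. ACCGGTT, part of the grainyhead site, was in no member window and in 0.831% of all windows. No match in a member window overlapped a match of another motif. A match describes the letters in the window and says nothing about binding.

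The claudins were present at very unequal levels, and Cldn8 and Cldn10 made up most of them. Levels between genes were compared as normalized counts per kb of exon, with exon lengths of 1173 to 4841 bases (GENCODE vM21). By the median over the 6 libraries the order was Cldn8 at 1948 per kb, Cldn10 at 1007, Cldn16 at 396, Cldn7 at 196, Cldn2 at 188, Cldn12 at 84.9, Cldn3 at 69.5, Cldn19 at 52.1, Cldn1 at 31.2 and Cldn4 at 4.56. Only the step from Cldn10 to Cldn16 exceeded its spread between libraries, with a log2 difference of 2.03 ± 1.39 (SD, n = 6) and the same order in 6 of 6 libraries. The other 8 of the 9 steps between neighbours were smaller than their SD. Cldn8 stood above Cldn10 in 6 of 6 libraries, by 0.53 ± 0.58 on the log2 scale. Cldn8 was the highest member in every library, and Cldn8 and Cldn10 together took 82.1%, 72.1% and 57.4% of the summed claudin level per kb in Trf1+/+ and 69.8%, 72.8% and 69.7% in Trf1flox/flox. The share of Cldn2 ranged from 0% to 17.5%, so the make-up of the remainder changed from library to library.

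**Figure D1:**
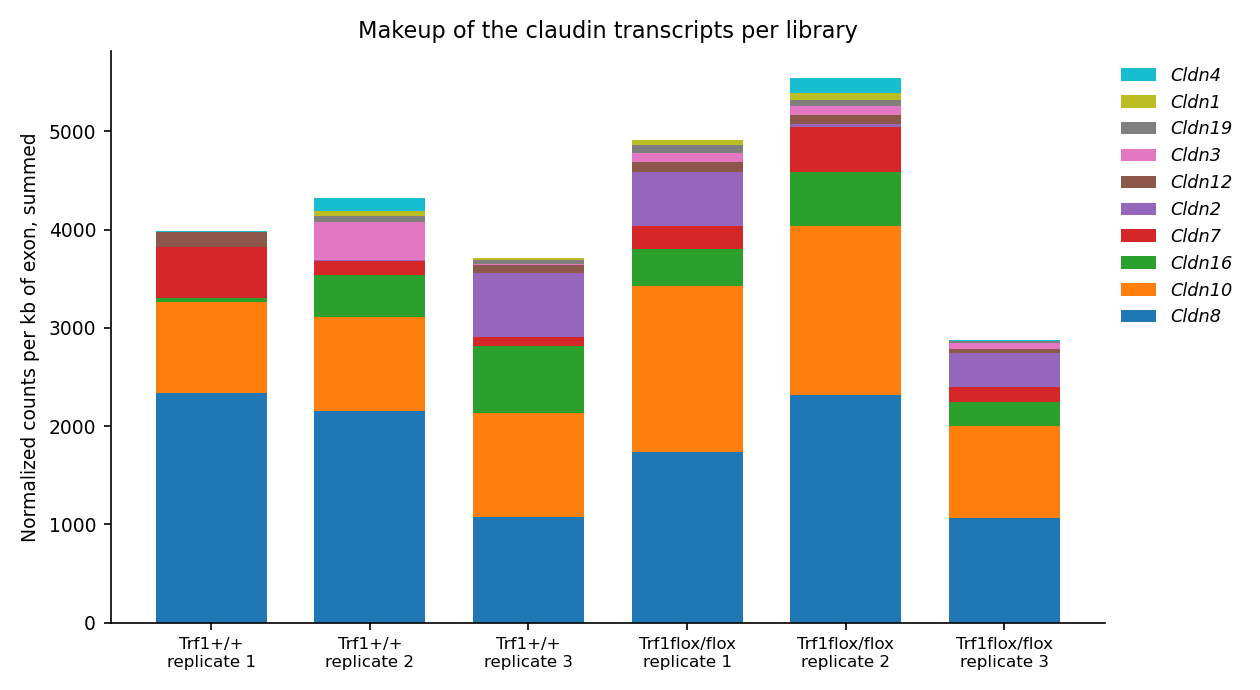
Normalized counts per kb of exon, summed over the 10 claudins and stacked by gene (vertical axis), in each of the 6 libraries (horizontal axis). Cldn8 and Cldn10, at the bottom, fill 57.4% to 82.1% of every bar, while Cldn2 takes 0% in Trf1+/+ replicate 1 and 17.5% in Trf1+/+ replicate 3.

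Cldn10 is the proximal tubule and thick ascending limb claudin whose isoforms differ in ion choice (ENSMUSG00000022132, chr14:118787908-118875489, GRCm38). Its level in normalized counts was 2421, 2472 and 2747 for Trf1+/+ and 4382, 4459 and 2419 in Trf1flox/flox. Trf1flox/flox replicates 1 and 2 were the highest, and the Trf1flox/flox replicate 3 was the lowest of all, so the groups overlapped. The means were 2547 ± 176 and 3753 ± 1156 (SD, n = 3 each), a log2 fold change of 0.51 (SE 0.75, 95% interval -1.32 to 2.34). Since the table sums both starts, this value holds no information on which isoform was present, and a small ribosomal RNA gene, n-R5s51, lies inside the Cldn10 gene.

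Cldn2, the cation and water pore of the proximal tubule (ENSMUSG00000047230, chrX:139800828-139811386), was the most uneven member. It was 0, 35.6 and 2162 in Trf1+/+ and 1821, 94.0 and 1159 in Trf1flox/flox. Each genotype thus held libraries near or below 100 and libraries above 1000. For the library at 0, a count of 0 allows up to 3 reads, or 2.67 normalized counts, and such limits cover counting error only. The log2 fold change was 3.77 (SE 2.89, 95% interval -3.26 to 10.80), and without Trf1+/+ replicate 1 it was 1.06. Leaving out Trf1+/+ replicate 3 instead raised it to 6.60 (limma adjusted p = 0.459), and edgeR and DESeq2 on the recovered reads gave 0.49 and 0.48. The 13 proximal tubule markers were read beside it. Their sum was 94396 in Trf1+/+ replicate 1, where Cldn2 was at 0, and 71943 of that was Kap. Kap is an androgen-regulated gene, the sex behind each library is not given, and a part of sex in these values was not tested. Without Kap, a setting chosen after the data were seen, the other 12 markers summed to 22453, 12128 and 57278 in Trf1+/+ and 22999, 42382 and 57702 in Trf1flox/flox. The low sums of Trf1+/+ replicates 1 and 2 thus went with low Cldn2, while Trf1flox/flox replicate 1 had high Cldn2 beside a low sum and replicate 2 the opposite. Over the 6 libraries Pearson's r with Cldn2 was -0.03 for all 13 markers (rho 0.03) and 0.53 without Kap (rho 0.66), as a description. Taken singly, 12 of the 13 had a positive r, from 0.11 for Slc22a6 to 0.87 for Slc22a8, and Kap had -0.35. The sum without Kap was set beside Cldn2 only.

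Cldn12 (ENSMUSG00000046798, chr5:5489537-5514958) measured 650.2, 2.49 and 335 in Trf1+/+ and 451, 382 and 179.9 in Trf1flox/flox. It was the only member that was high in Trf1+/+ replicate 1 and at 3 reads in Trf1+/+ replicate 2. Apart from that library, the 5 values spanned 179.9 to 650.2 and the genotypes overlapped. The log2 fold change of 1.79 (SE 2.07, 95% interval -3.25 to 6.83) rested on that library and was -0.57 without it.

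Cldn16 and Cldn19, the pair of the thick ascending limb, were low together in 1 library. Cldn16 (ENSMUSG00000038148, chr16:26463135-26482765) was 43.6, 498 and 808 in Trf1+/+ and 432, 649 and 282 in Trf1flox/flox. Cldn19 (ENSMUSG00000066058, chr4:119255414-119262438) was 0.891, 241 and 203 against 368, 281 and 86.1. Both had their lowest value in Trf1+/+ replicate 1, where Cldn19 had 1 read, and in the other 5 libraries each gene overlapped between genotypes. The log2 fold changes were 0.71 (SE 1.30, 95% interval -2.44 to 3.87) for Cldn16 and 2.20 (SE 2.05, 95% interval -2.79 to 7.19) for Cldn19. Without Trf1+/+ replicate 1 they were -0.56 and -0.09. Per kb, Cldn16 exceeded Cldn19 in every library, by 4.27 to 14.5 times in the 5 libraries with more than 1 Cldn19 read. The thick ascending limb itself was well represented in all libraries, with summed levels of its 7 markers, of which Umod was the highest in each library, of 64847 to 124850 in Trf1+/+ and 55844 to 161041 in Trf1flox/flox. In Trf1+/+ replicate 1 that sum was 90334. An antisense gene, Gm12927, overlaps Cldn19, and the libraries did not mark the strand, so reads of the 2 cannot be told apart.

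Cldn8 (ENSMUSG00000050520, chr16:88560828-88563183), a barrier and chloride claudin of the distal nephron and collecting duct, was high everywhere. The values were 5497, 5087 and 2524 in Trf1+/+ and 4094, 5453 and 2519 in Trf1flox/flox. Replicate 3 of each genotype was the lowest of its group, and the genotypes covered nearly the same range. The means were 4369 ± 1612 and 4022 ± 1468 (SD, n = 3 each), with a log2 fold change of -0.11 (SE 0.81, 95% interval -2.09 to 1.87). That sign flipped with upper quartile scaling, to 0.17. Markers of the distal convoluted tubule, in part the site of Cldn8, summed to 40944 to 63471 in Trf1+/+ and 18150 to 32218 in Trf1flox/flox and did not overlap. Taken singly, Slc12a3, Klhl3 and Calb1 did not overlap, while Pvalb and Trpm6 did. Calb1 parted narrowly, with its lowest Trf1+/+ value at 11368 and its highest Trf1flox/flox value at 11124. Of all tested genes 8.68% did not overlap. The part of these markers in the Cldn8 values was not tested.

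Cldn7 (ENSMUSG00000018569, chr11:69964779-69967885), found along the basolateral side as well as the junction of distal cells, was 1015, 275 and 175 in Trf1+/+ and 464, 892 and 301 in Trf1flox/flox. Its highest and its lowest value were both in Trf1+/+, with the log2 fold change at 0.45 (SE 1.01, 95% interval -2.01 to 2.90). Unlike Cldn1, Cldn2, Cldn3 and Cldn19, it was at its highest in Trf1+/+ replicate 1.

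Cldn3 and Cldn4, single-exon genes of sealing claudins, lie 39279 bases apart on chromosome 5. Cldn3 (ENSMUSG00000070473, chr5:134986214-134987472) was 0, 492 and 9.85 in Trf1+/+ and 108, 111 and 66.8 in Trf1flox/flox. The Trf1flox/flox values were close to each other and lay inside the range of Trf1+/+. The means were 167 ± 281 and 95.5 ± 24.9 (SD, n = 3 each), so the mean count was lower in Trf1flox/flox, while the log2 fold change was 2.43 (SE 2.23, 95% interval -3.00 to 7.86). The log2 value was 0.36 without Trf1+/+ replicate 1 and 4.84 without Trf1+/+ replicate 2 (limma adjusted p = 0.498). On the recovered reads edgeR gave -0.91. The antisense gene Wbscr25 overlaps Cldn3, with the same limit as for Cldn19. Cldn4 (ENSMUSG00000047501, chr5:134945119-134946934) was 1.78, 234 and 6.90 in Trf1+/+ and 0.859, 269 and 9.65 in Trf1flox/flox. In each genotype only replicate 2 was above 10 normalized counts, and 2 libraries held at most 3 reads, so Cldn4 missed the filter on low values and was not fitted. Over the 6 libraries Pearson's r between Cldn3 and Cldn4 was 0.62, as a description, and they parted most in Trf1flox/flox replicate 1, where Cldn3 had 126 reads and Cldn4 had 1. In that library Aqp2, the water channel of collecting duct principal cells, was at its highest, 16844. Principal cell markers summed to 576 to 3696 in Trf1+/+ and 1227 to 20925 in Trf1flox/flox, and intercalated cell markers to 1456 to 13218 and 1174 to 11129. The libraries with the highest intercalated sums in each genotype, replicate 2 in both, were those with Cldn4 above 10, while Trf1+/+ replicate 1, with an intercalated sum of 9245, had 2 Cldn4 reads. For Cldn4, Pearson's r over the 6 libraries was 0.69 with the intercalated cell markers (rho 0.77) and -0.17 with the principal cell markers (rho -0.09). Over all 14 pairs of a claudin and a marker list r ran from -0.28 to 0.77. The lowest r was that of Cldn10 with the proximal tubule markers (rho -0.60). The highest r was that of Cldn8 with the intercalated cell markers (rho 0.54), while Cldn8 with the distal convoluted tubule markers was at 0.13. With the thick ascending limb markers r was 0.54 for Cldn10 (rho 0.60), 0.05 for Cldn16 (rho 0.09) and 0.24 for Cldn19. By rho the order differed, and Cldn19 with those markers was at 0.77, level with Cldn4 and the intercalated cell markers. Since library quality is shared by all genes, these are descriptions.

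Cldn1 (ENSMUSG00000022512, chr16:26356642-26371841), 91293 bases from Cldn16, was 0, 251 and 56.2 in Trf1+/+ and 246, 358 and 34.5 in Trf1flox/flox. It was at 0 in Trf1+/+ replicate 1 and low in replicate 3 of both genotypes. The log2 fold change was 2.59 (SE 2.22, 95% interval -2.81 to 7.99) and fell to 0.29 without Trf1+/+ replicate 1. Of 7 parietal and podocyte markers 2 had a row, and their sums were 1.78 to 43.9 in Trf1+/+ and 83.4 to 247 in Trf1flox/flox. These sums, of Pax2 and Cd44, did not overlap, but neither gene separated the genotypes by itself. Pax2, which is also 1 of the 8 epithelial markers, reached 43.9 in Trf1+/+ and was 39.3 in Trf1flox/flox replicate 3. Cd44 was at 44.1 in that library and at most 2.96 in the others. The part of these markers in the Cldn1 values was not tested.

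**Figure D2:**
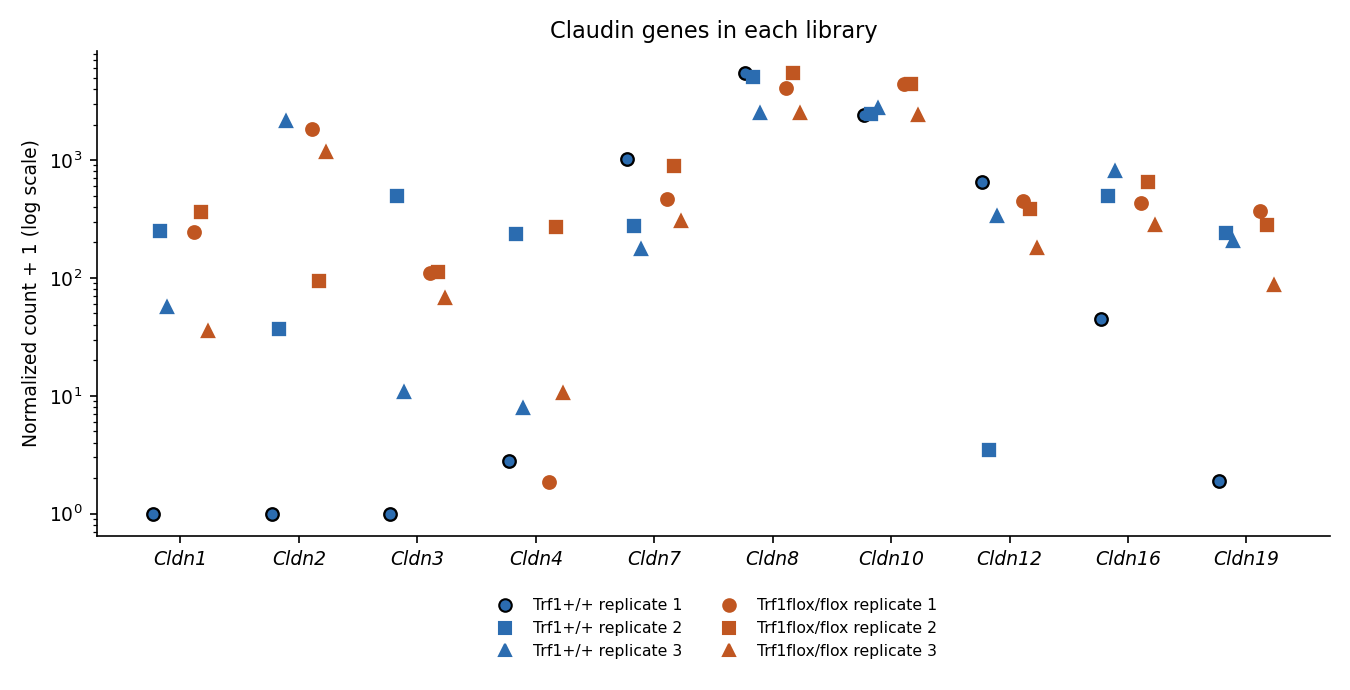
Normalized count plus 1 of each claudin (vertical axis, log scale), 1 symbol per library, with Trf1+/+ in blue, Trf1flox/flox in orange and Trf1+/+ replicate 1 outlined in black. The genotypes overlap for every gene, Cldn8 and Cldn10 stay between 2419 and 5497, and Trf1+/+ replicate 1 lies at or near a count of 0 for Cldn1, Cldn2, Cldn3, Cldn4 and Cldn19.

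No claudin differed between the genotypes beyond the spread of the libraries. Of the 9 that passed the filter, 0 were called by limma at an adjusted p under 0.05 (smallest adjusted p 0.996), with 0 at an unadjusted p under 0.05. The background over 9966 tested genes was 0% called, with 454 genes, or 4.56%, at an unadjusted p under 0.05 (3.54% higher and 1.01% lower in Trf1flox/flox). edgeR on the recovered reads called 0 genes, with 1.97% at an unadjusted p under 0.05. DESeq2 called 58 genes, 0.604% of those it tested, and no claudin among them. The genotypes overlapped for all 10 claudins, where 8.68% of all tested genes did not overlap. The exact two-sided permutation test gave p of 0.4 to 1.0 per claudin, and with 3 libraries against 3 it cannot go below 0.1. The intervals were wide: each of the 9 held 0. A moderate difference was therefore not detectable for most members, and the narrowest interval, of Cldn10, reached from -1.32 to 2.34. With a variance trend in limma, a setting chosen after the data were seen, its interval was -0.44 to 1.46, and 3.13% of all tested genes had an unadjusted p under 0.05.

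Most fold changes pointed the same way, and for Cldn1, Cldn2, Cldn3, Cldn16 and Cldn19 the value fell without Trf1+/+ replicate 1. Cldn7 and Cldn12 instead rose without it, to 1.18 and 3.20, and Cldn10 stayed near its value, at 0.47. The log2 fold change was above 0 for 8 of 9 claudins, with a median of 1.79, where 55.9% of all tested genes were above 0 with a median of 0.20. Upper quartile scaling moved the median of all genes to 0.44 and that of the claudins to 2.08. Without Trf1+/+ replicate 1, 7 of 9 were above 0 and their median was 0.36, beside 48.9% and -0.03 for all genes. In that library 5 of the 10 members were at or under 3 reads. Cldn1, Cldn2 and Cldn3 were at 0, Cldn19 had 1 read, and Cldn4, which was not tested, had 2 reads. Such losses were not particular to claudins, since 3431 of the 9966 tested genes were at or under 3 reads there, 1852 of them at 0. Cldn7, Cldn8 and Cldn12, at 1015, 5497 and 650.2, had their highest value there. Low levels of claudins were thus not common to all members in the library that stood apart.

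**Figure D3:**
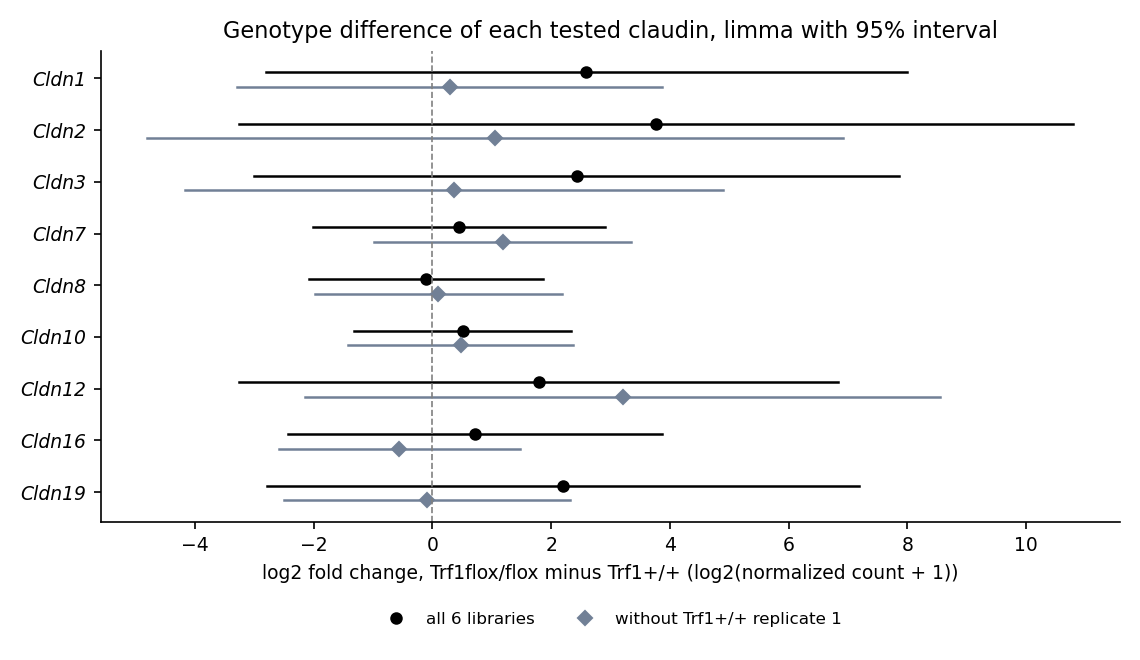
Log2 fold change (Trf1flox/flox minus Trf1+/+, horizontal axis) of the 9 tested claudins, with all 6 libraries as black circles and without Trf1+/+ replicate 1 as grey diamonds, and lines for the 95% intervals of limma. Every interval spans 0, and the value of Cldn2 falls from 3.77 to 1.06 when that library is left out.

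The members differed widely in their spread between libraries. The SD of the log2 level over the 6 libraries was 0.43 for Cldn10 and 0.53 for Cldn8, against a median of 2.32 for all tested genes. Only 3.74% of tested genes had a smaller SD than Cldn10 and 7.73% than Cldn8. Both are high genes, and among the 1221 genes with a mean of at least 1000, where the median SD was 0.63, the shares were 18.0% and 34.7%. At the other end, 99.5% of tested genes had a smaller SD than Cldn2, at 4.32. Apart from Cldn8 and Cldn10, members were compared with tested genes of any level, not with genes of like level. In all, 4 members were below the median SD of all genes (Cldn7, Cldn8, Cldn10 and Cldn16) and the other 6 above it, with Cldn4, which was not tested, among them. The same 4 were the only members above 3 reads in every library. Partner ratios varied as widely. Per kb, Cldn8 exceeded Cldn4 by 15.6 and 16.7 times in replicate 2 of Trf1flox/flox and Trf1+/+, and by 201 and 282 times in replicate 3, while Cldn8 and Cldn10 stayed within 1.01 to 2.50 times of each other in all 6.

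**Figure D4:**
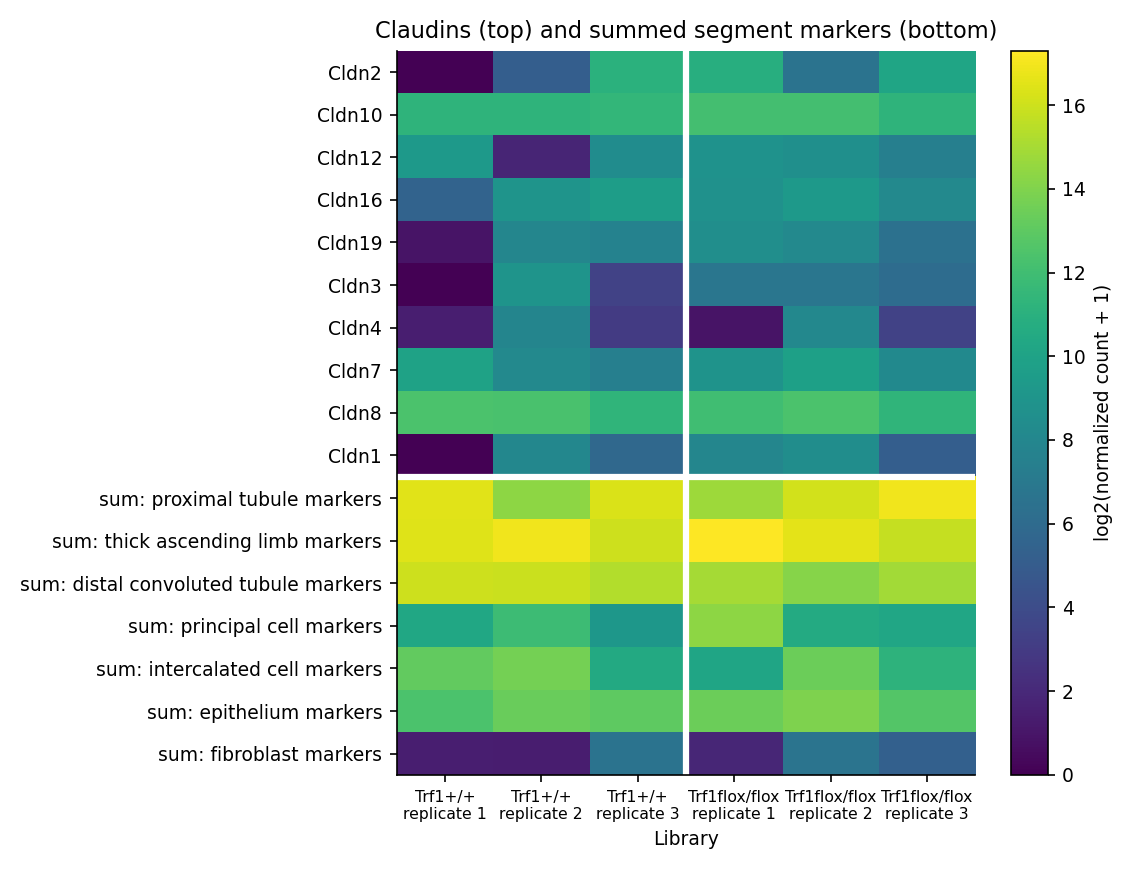
Heat map with the 6 libraries as columns and, as rows, the 10 claudins above and the summed markers of nephron segments, epithelium and fibroblasts below, coloured by log2(normalized count + 1). Cldn2 is at 0 in Trf1+/+ replicate 1 where the proximal tubule markers sum to 94396, of which 71943 is Kap, and Cldn4 holds 1 read in Trf1flox/flox replicate 1 where the principal cell markers sum to 20925.

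The other tight junction genes gave the same reading. Of a list of 30 symbols of scaffold, junction and polarity genes, in which Pals1 and Mpp5 name the same gene, 28 had a row and 25 were tested. None was called, 1 had an unadjusted p under 0.05, 15 were higher and 10 lower in Trf1flox/flox, and for 0 of them the groups did not overlap, beside 4.56% of all tested genes at an unadjusted p under 0.05, 55.9% higher and 8.68% not overlapping. Their median log2 fold change was 0.47, and 0.12 without Trf1+/+ replicate 1. The gene with the unadjusted p was Prkci, a polarity kinase, at 568, 215 and 74.9 in Trf1+/+ and 2.58, 1.09 and 105 in Trf1flox/flox. Its log2 fold change was -4.51 (SE 1.74, limma adjusted p = 0.996). Esam, Cxadr and Ildr1, junction membrane proteins of the immunoglobulin type, came next by the size of the limma statistic, with log2 fold changes of 3.85, 3.21 and 3.69, and all of them had at most 1 read in Trf1+/+ replicate 1. In that library 12 of the 28 were at or under 3 reads, beside 3431 of the 9966 tested genes. The 12 include Jam3, Magi2 and Lsr, which were not tested and had 0 reads there, so the bases of these counts differ. Occludin, the other strand protein, was at 35.6, 458 and 598 in Trf1+/+ and 421, 882 and 155 in Trf1flox/flox and so was lowest in the same library as Cldn16.

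For 8 members with a median of at least 100, the genes of most similar pattern were taken by Pearson's r of log2 levels over the 6 libraries among 7167 genes. Yipf5 was nearest to Cldn1 (r = 0.998), Supt16 to Cldn2 (0.993), Cdc37 to Cldn7 (0.985) and Macf1 to Cldn8 (0.990). Isca2 was nearest to Cldn10 (0.973), Gosr1 to Cldn16 (0.996) and Me3 to Cldn19 (0.999). The points share their libraries' depth and losses, and the values are descriptions. None of the genes named here is a segment marker. Of the wider family, the annotation lists 35 Cldn genes, of which 25 were not analysed here. Cldnd1, a claudin-domain gene, was at 0.891, 767 and 782 in Trf1+/+ and 729, 157 and 147 in Trf1flox/flox. Apart from the library labelled Trf1+/+ replicate 1, with 1 read, its lowest values were in Trf1flox/flox replicates 2 and 3, as for Terf1, and its log2 fold change was 1.30 (SE 2.52, limma adjusted p = 0.996).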

How the data were processed

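RNA of 6 libraries, 3 per genotype, was reverse transcribed from oligo(dT) with template switching and sequenced without strand information. Per the labels and the study's methods, the authors trimmed reads with bbduk, aligned them with TopHat2 2.0.10, Bowtie 1.0.0 and SAMtools 0.1.19 and counted them with HTSeq 0.6.1. The genome is given as GRCm38 with GENCODE vM20 in the methods and as GRCm39 in the submitters' processing notes, so coordinates are from GENCODE vM21 (GRCm38). The authors deposited a signal in normalized counts, read counts divided by a size factor per library, with 0 other columns left unused. All values (100%) were whole multiples of 1 read within 0.001 reads, with 1 read worth 0.689 to 1.09 normalized counts, so reads were recovered for count tests. A level of at most 3 reads was treated as the floor.

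Genes that reached 10 normalized counts in 3 or more libraries (9966 of 12125) were tested with limma 3.58.1 (R 4.3.3) on log2(normalized count + 1), with Benjamini-Hochberg adjustment over all tested genes. The added count shrinks changes of low genes, yet libraries at or near 0 could still give larger values than edgeR did. For Cldn1 the log2 fold change was 2.59, against 0.91 by edgeR and 1.53 with a pseudocount of 10. Each claudin also had an exact two-sided permutation test of the genotype labels (20 arrangements). The labels give no replicate numbers, and those used here follow accession order and pair nothing, so no pairing was used. Alternatives were pseudocounts of 0.5 and 10, no filter, upper quartile scaling, edgeR 4.0.16 (quasi-likelihood) and DESeq2 1.42.0 on recovered reads, leaving out each library, and a variance trend. Scripts were tested on simulated data. The members, gene lists and marker lists were chosen with earlier results of these data known. All members were named, and of the tight junction list the genes called or else the 4 with the largest limma statistic. Ocln was named after its values were seen. The nearest pattern of Cldn12 is not reported here.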

Additional observations from a re-analysis of the deposited data

How the results depend on the processing

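No claudin was called under any of the 13 alternatives, where the smallest adjusted p was 0.459. The number of genes called was 0 by limma and 58 by DESeq2, a difference whose cause was not tested. Of 117 claudin log2 fold changes under the alternatives, 11 changed sign, 4 of them with all libraries kept. These were Cldn3 with edgeR (-0.91) and DESeq2 (-0.81, with no adjusted p), Cldn8 with upper quartile scaling (0.17) and Cldn16 with edgeR (-0.063). Leaving out a library reversed Cldn7 without Trf1+/+ replicate 3 (-0.082, range over left-out libraries up to 1.18) and Cldn8 without Trf1+/+ replicate 1 (0.10), Trf1+/+ replicate 2 (0.04) or Trf1flox/flox replicate 3 (0.19), with a lowest value of -0.46. It also reversed Cldn12 without Trf1+/+ replicate 2 (-0.57, up to 3.20), and Cldn16 (-0.56, up to 1.53) and Cldn19 (-0.092, up to 3.41) without Trf1+/+ replicate 1. Cldn1, Cldn2 and Cldn10 kept their sign throughout, with ranges over left-out libraries of 0.29 to 4.28, 1.06 to 6.60 and 0.36 to 0.80, and for Cldn3 0.36 to 4.84. edgeR gave smaller values for Cldn1 (0.91), Cldn2 (0.49), Cldn7 (0.24), Cldn12 (0.12) and Cldn19 (0.62). Cldn4 has no fitted value with the filter, since it reached 10 normalized counts in 2 libraries. No paired analysis was possible because the replicate numbers follow accession order and pair nothing. With 500 cells per library, a gene at 0 in a library was not detectable at this input, which does not show that it was absent.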

Other observations

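Genes with a known link to claudins were read beside them. Of 17 listed, 15 had a row and were tested, 0 were called by limma, 10 had a higher and 5 a lower log2 fold change in Trf1flox/flox, and for 4 the genotypes did not overlap, where 8.68% of all tested genes did not. These 4 were Wnk1, Klhl3 and Cul3, which were lower, and Spint1, which was higher. Klhl3 encodes the adaptor of a ubiquitin ligase that acts on WNK kinases and on claudin-8. It was at 1532, 1820 and 1698 in Trf1+/+ and 1037, 886 and 783 in Trf1flox/flox, with a log2 fold change of -0.91 (SE 0.72, limma adjusted p = 0.996), while Cldn8 overlapped throughout. Klhl3 is also 1 of the 5 distal convoluted tubule markers, whose summed level was lower in every Trf1flox/flox library. Spint1 encodes a membrane-bound protease inhibitor of epithelia. It measured 45.4, 13.3 and 379 in Trf1+/+ and 398, 611 and 404 in Trf1flox/flox, with a log2 fold change of 2.87 (SE 1.34, limma adjusted p = 0.996).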
